A study of Mus musculus and Homo sapiens with 4 samples.

Results

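The replication histone genes were taken as every entry of the mouse embryonic fibroblast (MEF) RNA sequencing tables whose symbol starts with Hist1h, Hist2h, Hist3h or Hist4h, which gave 68 of 23329 entries. By type these were 6 genes of the linker histone H1 and 18, 19, 12 and 13 genes of the core histones H2A, H2B, H3 and H4. The libraries labelled MEF WT and MEF NEAT1 KO came from fibroblast lines of C57BL/6 E13.5 embryos, at passages 2 to 3, of wild-type mice and of mice with a knockout of the long non-coding RNA Neat1. The labels give poly-A+ RNA sequencing for both, the same medium and serum, and no other allele or agent. Each condition was 1 library, so no difference has a replicate check, no test was made and no P-value is given. The labels do not say how the knockout allele was made or whether a line pooled embryos. The values the authors deposited are RPKM, that is reads per kilobase of an entry scaled to library depth. The log2 ratio used throughout is that of the KO over the WT level after 1 RPKM was added to each, a step that shrinks the differences of weakly measured genes.

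Replication histones package the DNA copied in each S phase. Their messenger RNAs are the known exception among the messengers of animal cells: most end in a short stem-loop, bound by the stem-loop-binding protein SLBP, and carry no poly-A tail. The genes lie in clusters, have no introns and are transcribed in step with DNA synthesis. Some of them also give rise to polyadenylated transcripts, and these are the form that poly-A selection retains.

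Neat1, the gene named in the knockout label, had 29.5 RPKM in MEF WT and 2.01 RPKM in MEF NEAT1 KO, a log2 ratio of -3.34. Some signal thus remained over its entry in the KO library, and its source was not tested. The 10 fibroblast genes listed as a check on the label all had at least 1 RPKM in both libraries. Vim, an intermediate filament protein, was the highest, at 3151 and 2448 RPKM, and the collagen gene Col1a1 had 1477 and 1874 RPKM. Pdgfra was the lowest, at 4.18 and 13.8 RPKM. Of 10 such genes 8 were higher in the KO library, where 39.2% of the entries of at least 1 RPKM in at least 1 library were higher. The largest log2 ratios were those of Lum (1.92), Dcn (1.64) and Pdgfra (1.51), and the lowest was that of Fn1 (-0.56). All 6 measured macrophage and leukocyte genes were higher in the KO library, as were 41.1% of all entries above 0 in at least 1 library. Their summed level went from 17.9 to 44.7 RPKM, carried by Lyz2 (13.9 and 34.7 RPKM) and Cd68 (2.79 and 7.26 RPKM). Csf1r, Itgam and the pan-leukocyte gene Ptprc were under 1 RPKM in both libraries, Ptprc at 0.0449 and 0.0813 RPKM. The summed level of 5 skeletal muscle genes went from 18.9 to 7.46 RPKM, carried by Acta1 (12.6 and 4.26 RPKM) and Des (6.28 and 3.20 RPKM). The defining muscle regulators Myog and Myod1 were at 0.0216 and 0.0139 RPKM in MEF WT and listed at 0 in the KO library. The 4 endothelial genes summed to 1.12 and 0.558 RPKM and the 5 epithelial genes to 1.09 and 0.677 RPKM, Cdh1 being listed at 0 in both. What part such differences in the make-up of the cultures have in the values below was not tested.

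The stem-loop is the sequence on which the poly-A state of these messengers turns, and it was searched for in the GENCODE M21 transcripts (build GRCm38) of the genes, after the stop codon, with the consensus pattern of the histone stem-loop. It was found in 48 of 72 protein-coding transcripts of the histone genes, belonging to 46 of the 68 genes, and, searched for anywhere in the transcript and so more widely, in 9 of 58725 protein-coding transcripts of other genes (0.0153%). Annotated transcripts that stop at the end of the coding sequence cannot show it. The following sites are those of the genes whose levels are described in most detail, with the 16 bases of the stem-loop in capitals and 5 flanking bases on each side. The coordinates are those of the stem-loop.
Hist1h1c, chr13.0:23739512-23739527 (plus strand): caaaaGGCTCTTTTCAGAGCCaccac
Hist3h2a, chr11.0:58955172-58955187 (plus strand): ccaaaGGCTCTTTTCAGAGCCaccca
Hist1h2ab, chr13.0:23751572-23751587 (plus strand): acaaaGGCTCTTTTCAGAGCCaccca
Hist1h3b, chr13.0:23752820-23752835 (plus strand): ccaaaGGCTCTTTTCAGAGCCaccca
Hist2h3c1, chr3.0:96247327-96247342 (plus strand): acaaaGGCTCTTTTCAGAGCCaccac
Hist1h1e, chr13.0:23621782-23621797 (minus strand): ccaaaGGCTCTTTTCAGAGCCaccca
Hist1h4i, chr13.0:22040966-22040981 (minus strand): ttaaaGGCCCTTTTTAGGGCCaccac
Hist1h4h, chr13.0:23531458-23531473 (plus strand): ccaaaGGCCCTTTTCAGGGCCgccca
Hist1h4d, chr13.0:23581950-23581965 (plus strand): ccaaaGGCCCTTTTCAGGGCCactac
The most frequent sequence, that of Hist1h1c, Hist3h2a, Hist1h2ab, Hist1h3b, Hist2h3c1 and Hist1h1e, was carried by 26 genes, among them 3 of H1, 10 of H2A, 8 of H2B and 5 of H3. The 12 H4 genes with a stem-loop carried a stem that begins with GGCC or GGTC, whereas all 34 genes of the other types carried one that begins with GGCT. In 27 of the 46 genes the stem-loop lies inside the interval over which the authors counted reads, and in 19 it lies outside it, most of these entries covering the coding sequence alone.

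The replication histone genes were weakly represented in both libraries. At least 1 RPKM was reached by 10 of the 68 in MEF WT (14.7%) and by 6 in MEF NEAT1 KO (8.82%), against 48.2% and 47.7% of all entries. The median level was 0.152 RPKM in MEF WT and 0.0922 RPKM in MEF NEAT1 KO, where all entries had medians of 0.729 and 0.671 RPKM. In MEF WT 11 genes were listed at 0, in MEF NEAT1 KO 14, and 7 in both. Among the latter, Hist1h2ao, Hist1h2ap, Hist1h2bq and Hist1h2br have entries of 23009 to 31119 bp and coding sequences wholly shared with other genes. What part the placement of reads has in their zeros was not tested. Together the genes held 150.1 RPKM in MEF WT and 119.6 RPKM in MEF NEAT1 KO, which is 0.0441% and 0.0339% of all RPKM in each library. In these bulk libraries fewer cells in S phase and less histone RNA per cell cannot be told apart.

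**Figure D1:**
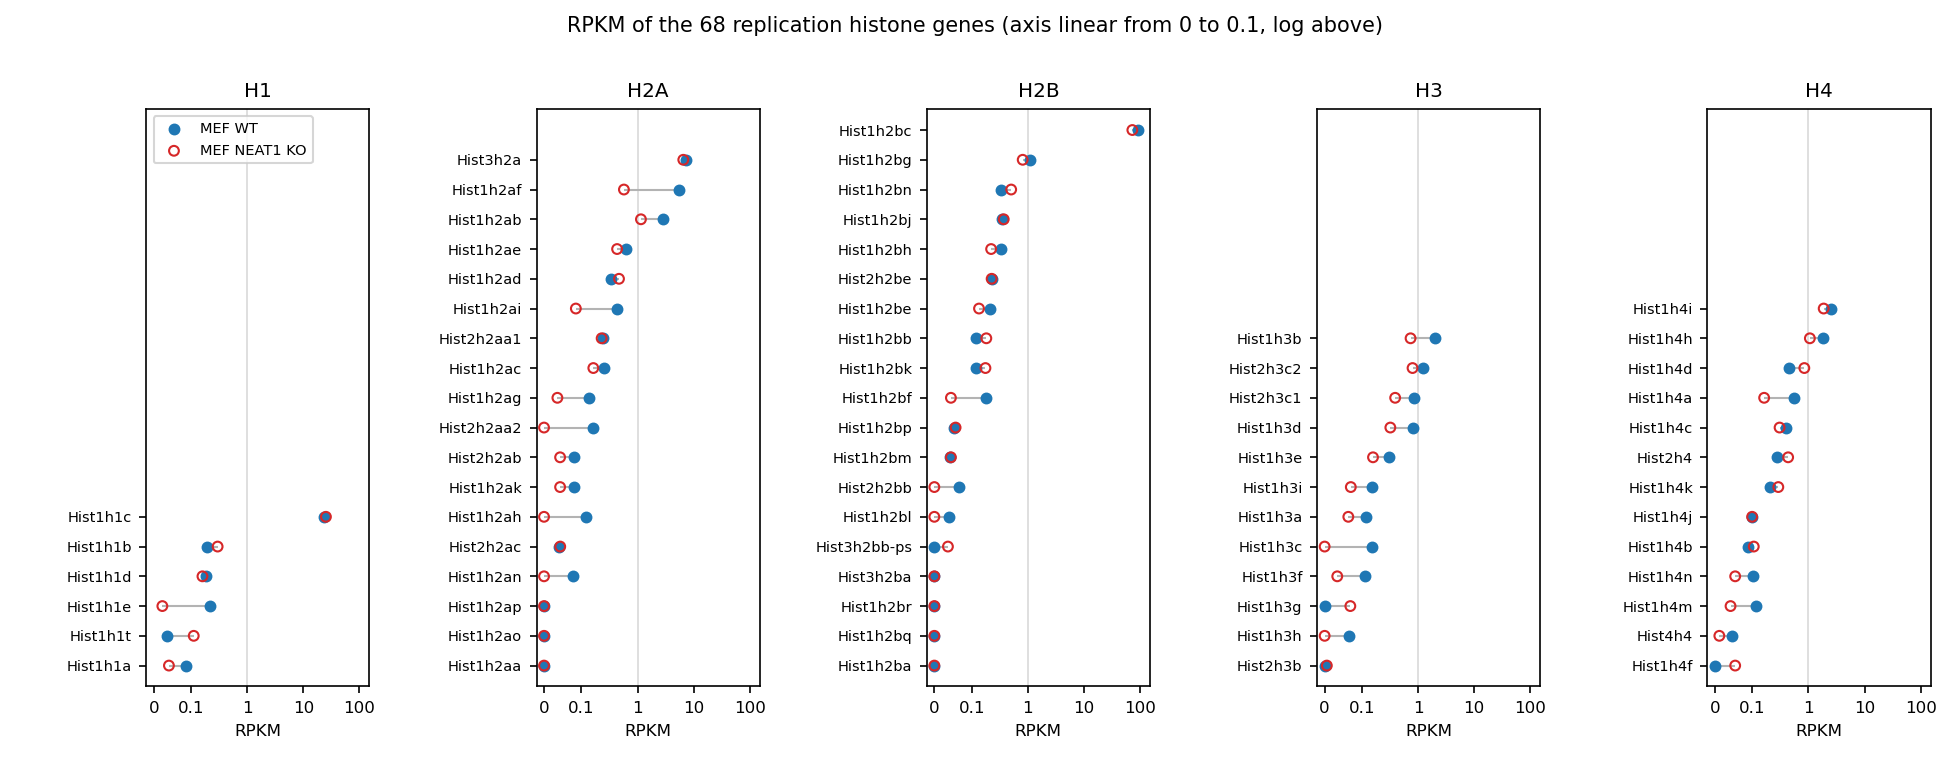
RPKM of each of the 68 genes in MEF WT (filled blue) and MEF NEAT1 KO (open red), 1 panel per histone type, on an axis that is linear from 0 to 0.1 and logarithmic above. Hist1h2bc, Hist1h1c and Hist3h2a stand above all others in both libraries, and only 10 genes in MEF WT and 6 in MEF NEAT1 KO reach 1 RPKM, marked by the grey line.

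Most of this signal, 122.9 of the 150.1 RPKM in MEF WT and 104.9 of the 119.6 RPKM in MEF NEAT1 KO, came from 3 genes. Hist1h2bc, an H2B gene on chromosome 13 (23684199 to 23692480), had 91.7 RPKM in MEF WT and 73.0 RPKM in MEF NEAT1 KO, a log2 ratio of -0.33. It alone made up 61.1% of the summed level of the histone genes in each library. Most of its coding sequence is shared with other genes, as set out below, and what part the placement of reads has in its level was not tested. Hist1h1c, an H1 gene at 23738807 to 23740367 of the same chromosome, had 23.8 and 25.3 RPKM, a log2 ratio of 0.08. Hist3h2a, an H2A gene on chromosome 11 (58954685 to 58956674), had 7.34 and 6.55 RPKM, a log2 ratio of -0.14. Of the 3, Hist1h1c alone was higher in the knockout.

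The annotated transcripts of these genes run well past the stop codon. The coding exon of Hist1h2bc is followed by a second exon, and its transcript has 742 nt after the stop codon with no match to the stem-loop pattern. In Hist1h1c 840 nt follow the stem-loop shown above, and the polyadenylation signal AATAAA stands 20 nt from the transcript end. In Hist3h2a 1643 nt follow the stem-loop, with AATAAA 28 nt from the end. Of all 68 genes, 17 have at least 500 nt annotated after the stop codon, and they held 127.2 of the 150.1 RPKM in MEF WT and 108.1 of the 119.6 RPKM in MEF NEAT1 KO. AATAAA stood in the last 60 bases of a transcript of 15 genes, Hist1h1c and Hist3h2a among them, and these summed to 34.1 and 33.9 RPKM, whereas the other 53, with Hist1h2bc, summed to 116.0 and 85.6 RPKM. A long annotated end did not by itself go with a high level. Hist2h2be, an H2B gene known for a polyadenylated transcript, has 2192 nt after the stop codon and AATAAA 16 nt from the end, and had 0.226 RPKM in both libraries. Hist1h1d, with 4931 nt, had 0.188 and 0.159 RPKM.

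**Figure D2:**
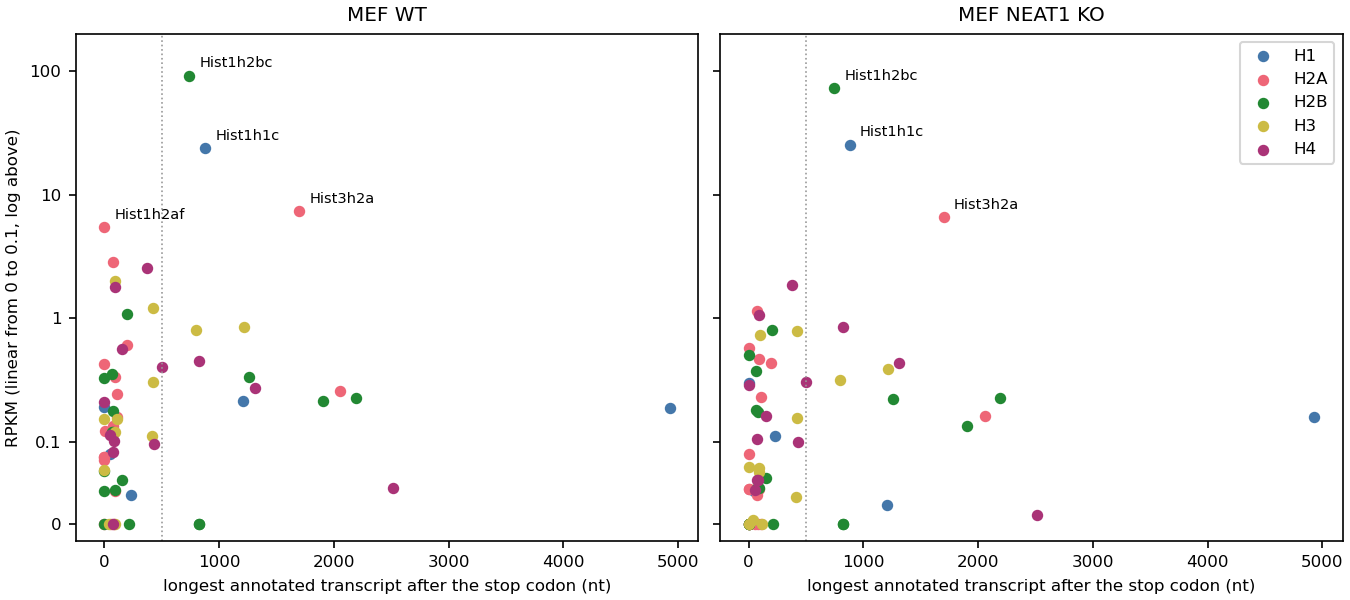
RPKM (vertical, linear from 0 to 0.1 and logarithmic above) against the longest annotated stretch of transcript after the stop codon in nt (horizontal), for MEF WT on the left and MEF NEAT1 KO on the right, with 1 point per gene coloured by histone type. The 3 highest genes lie to the right of the dotted line at 500 nt, while Hist1h2af, the 4th highest in MEF WT, has 1 nt annotated after its stop codon.

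Between the libraries 21 of the 68 genes were higher in MEF NEAT1 KO and 40 were lower, the remaining 7 being at 0 in both. Over all entries 30.1% were higher and 43.2% were lower. The median log2 ratio of the 68 histone genes was -0.06, and that of all entries was 0. The 10888 entries that reached 1 RPKM in each library also had a median of -0.06. Those entries are not a like set, since their median level in MEF WT was 10.5 RPKM and the pseudocount shrinks their ratios less. When the ratios were centred on the median of these 10888 entries, 27 of the 61 histone genes above 0 in at least 1 library were higher and 34 lower. This is 44.3% higher in place of 34.4%. The corresponding shares of all entries above 0 in at least 1 library were 57.5% after centring and 41.1% before. No histone gene had a log2 ratio above 1, where 0.977% of all entries did. One, Hist1h2af, had a ratio below -1, where 0.334% of all entries did, and it was also below -2, as were 4 entries in all (0.0171%).

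By type, the medians of the log2 ratio were 0.02 for H1, -0.11 for H2A, 0 for H2B, -0.14 for H3 and -0.05 for H4. The differences between these medians are small beside the range within each type, but their size depends on the pseudocount. With a pseudocount of 0.1 the medians were -0.03 for H1, -0.38 for H2A, 0 for H2B, -0.65 for H3 and -0.31 for H4. After centring, the sign for H4 turned positive (0.01) and H2B stood at 0.06. In numbers of genes, H3 and H2A stood most to the lower side, with 10 of 12 H3 genes and 13 of 18 H2A genes lower in the knockout and 2 higher in each type. Of all entries 43.2% were lower, and of those above 0 in at least 1 library 58.9%. Many of these ratios rest on a few reads. By the estimate below, only 4 single-exon H3 genes and 7 of H2A had at least 10 reads in 1 library. The genes also share sequence, so they are not independent. H1 had 3 higher and 3 lower, H2B 8 and 7, and H4 6 and 7.

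**Figure D3:**
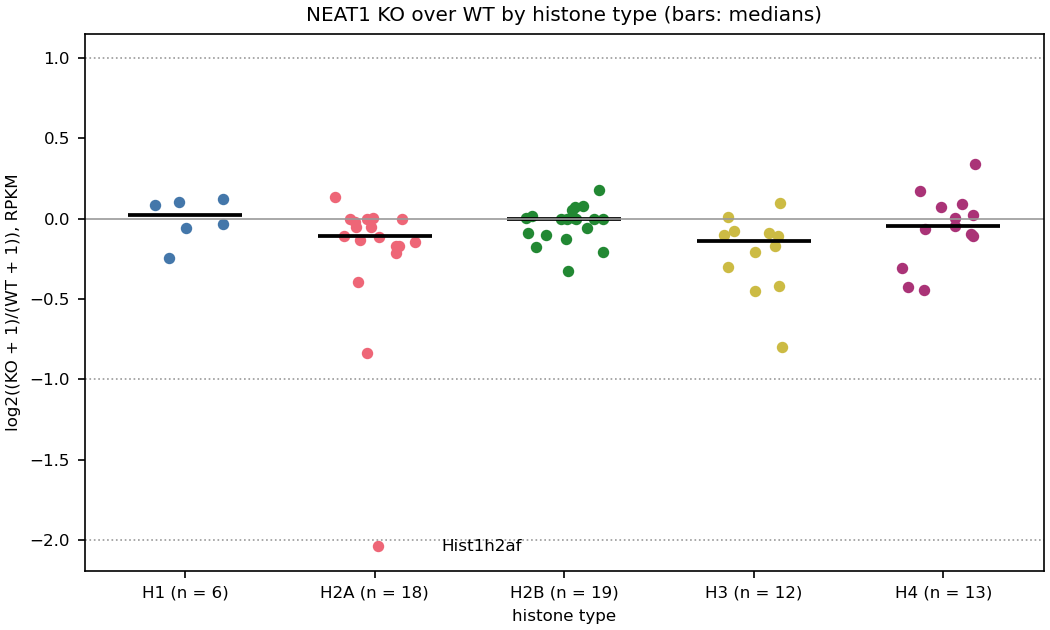
Log2 ratio of MEF NEAT1 KO over MEF WT for each gene, by histone type, with the median of each type as a black bar and dotted lines at 1, -1 and -2. The medians lie between -0.14 and 0.02, and Hist1h2af is the single gene below -1.

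Summed levels weight the genes that were measured above the lowest values. The 12 H3 genes summed to 5.79 RPKM in MEF WT and 2.64 RPKM in MEF NEAT1 KO, 2.20 times as much in the former. The 13 H4 genes summed to 6.70 and 5.33 RPKM, a ratio of 1.26. The 18 H2A genes summed to 18.2 and 9.81 RPKM, a ratio of 1.86, and to 10.9 and 3.26 RPKM, a ratio of 3.33, without Hist3h2a. Hist1h2af made up much of that difference, since without it the ratio over the H2A genes was 1.38, and 2.01 without both genes. The 18 H2B genes other than Hist1h2bc summed to 3.16 and 2.81 RPKM, and the 5 H1 genes other than Hist1h1c to 0.712 and 0.631 RPKM, ratios of 1.13 in both cases. Without Hist1h2bc, Hist1h1c and Hist3h2a, the other 65 genes summed to 27.3 RPKM in MEF WT and 14.7 RPKM in MEF NEAT1 KO, a ratio of 1.86 in place of 1.26 over all 68 genes. Leaving out Hist1h2af as well gave 21.8 and 14.1 RPKM, a ratio of 1.54. The 48 genes whose entry spans up to 1000 bp summed to 23.4 and 12.4 RPKM, a ratio of 1.88, and the 20 with longer entries to 126.8 and 107.2 RPKM, a ratio of 1.18. The longer entries include Hist1h2bc, Hist1h1c and Hist3h2a, which together held 122.9 and 104.9 RPKM, and the shorter ones include Hist1h2af. These few genes weigh heavily in both ratios, so the ratios do not show a difference by entry length. Leaving out genes in this way was chosen after the values had been seen.

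How many reads lie behind these levels could be estimated for genes of a single exon, from a step of which many of the lowest values are whole multiples. In MEF WT 1 read was worth 0.016 RPKM over 1 kb and in MEF NEAT1 KO 0.0169, which corresponds to 62.6 M and 59.1 M reads. Expressed as reads of 49 bases, 50 of the 51 values above 0 in MEF WT and 47 of the 49 in MEF NEAT1 KO were whole numbers of bases within 0.1 base, for the 58 single-exon genes. This length was chosen on these same values, as the one of those tried that gave the most whole numbers. A length of 98 bases gave as many (97 over both libraries), and 50 bases gave 62, so the read length itself is not established. Of the values above 0.5 reads, 21 of 51 in MEF WT and 23 of 48 in MEF NEAT1 KO were whole reads within 0.02, so most values include parts of a read. Of these 58 genes, 22 had at least 10 reads in 1 library and 36 had fewer in both. The folds below are ratios of RPKM, so they are scaled to library depth and differ from the plain ratio of the read numbers. The intervals are exact 95% intervals from the read numbers, rounded to whole reads and scaled to depth in the same way. They cover counting error only and say nothing of the variation between cultures. Since a gene can enter this group through 1 library alone, the counts over the group are a description of it.

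Hist1h2af, an H2A gene at 23533911 to 23534303 of chromosome 13, had 5.47 RPKM in MEF WT and 0.572 RPKM in MEF NEAT1 KO, a log2 ratio of -2.04. These levels correspond to 134.9 and 13.3 reads, a 9.56-fold higher level in MEF WT with a counting interval of 5.54 to 18.9. It had the 4th lowest log2 ratio of all 23329 entries and the largest share of summed H2A signal after Hist3h2a in MEF WT. Its interval is short, 393 bp, exactly the coding sequence. Only 5.52% of the 50-base windows of this sequence are found in no other annotated gene, the rest being shared between them with 47 genes. A read that lies within a shared window does not tell these genes apart. How the authors placed reads that match several genes is not given in the sources used here.

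Next in order were a pair of neighbours on chromosome 13. Hist1h2ab, an H2A gene at 23751088 to 23751593, had 2.83 RPKM in MEF WT and 1.15 RPKM in MEF NEAT1 KO, a log2 ratio of -0.83. Its read numbers were 89.9 and 34.4, and its RPKM was 2.46-fold higher in MEF WT with a counting interval of 1.67 to 3.82. Hist1h3b, an H3 gene that starts 786 bp further on at 23752380, had 2.02 and 0.733 RPKM, a log2 ratio of -0.80. Its reads were 52.0 and 17.8, and its RPKM was 2.75-fold higher in MEF WT with an interval of 1.57 to 4.95. Unique windows made up 28.5% of the coding sequence of Hist1h2ab and 5.25% of that of Hist1h3b. Not all neighbours had like ratios. Hist1h3g, 1114 bp from Hist1h2af, was listed at 0 in MEF WT and had 0.0687 RPKM (2.00 reads) in MEF NEAT1 KO. Hist1h2ad and Hist1h3d, 938 bp apart, had log2 ratios of 0.14 and -0.45.

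The promoters of these 3 genes are shown because they had the lowest log2 ratios of the family. Each line gives the 250 bases before the RefSeq start on build GRCm38.p6, with the motifs CCAAT and TATAAA, as well as TTTGCAT, on either strand in capitals. CCAAT is the box bound by the factor NF-Y. TATAAA is a TATA box and TTTGCAT the core of the octamer known from H2B promoters.
Hist1h2af, chr13:23533625-23533874 (plus strand): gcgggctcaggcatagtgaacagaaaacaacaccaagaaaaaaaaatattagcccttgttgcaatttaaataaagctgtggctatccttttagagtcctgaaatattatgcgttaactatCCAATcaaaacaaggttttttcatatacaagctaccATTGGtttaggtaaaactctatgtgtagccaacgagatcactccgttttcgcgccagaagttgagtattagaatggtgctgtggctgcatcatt
Hist1h2ab, chr13:23750838-23751087 (plus strand): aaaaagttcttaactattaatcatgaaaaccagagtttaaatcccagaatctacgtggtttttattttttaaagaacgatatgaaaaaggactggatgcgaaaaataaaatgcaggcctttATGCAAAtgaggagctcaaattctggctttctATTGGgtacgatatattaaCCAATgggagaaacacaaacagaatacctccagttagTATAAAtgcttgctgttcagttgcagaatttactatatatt
Hist1h3b, chr13:23752095-23752344 (plus strand): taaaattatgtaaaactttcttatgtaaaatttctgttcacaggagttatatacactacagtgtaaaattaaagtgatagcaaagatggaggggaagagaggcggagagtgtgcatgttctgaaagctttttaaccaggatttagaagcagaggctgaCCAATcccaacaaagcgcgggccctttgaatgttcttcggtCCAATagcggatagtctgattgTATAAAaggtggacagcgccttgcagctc
Hist1h2af holds 2 copies of CCAAT and neither of the other motifs, Hist1h2ab holds 2 copies of CCAAT and 1 of each other motif, and Hist1h3b holds 2 copies of CCAAT and 1 TATAAA. Promoter sequences of 300 bases, including 50 after the start, were found for 62 of the 68 genes (63 sequences). CCAAT was present in 85.7% of them against 37.4% of all 32851 promoters, TATAAA in 55.6% against 13.6%, and TTTGCAT in 23.8% against 4.63%. CCAAT was in every promoter of the H1, H2A, H2B and H3 genes and in 3 of 12 H4 promoters. TTTGCAT was in 7 of 18 H2A and 7 of 17 H2B promoters, in 1 H4 promoter and in no H1 or H3 promoter. A match says nothing of binding in these cells.

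Among the H3 genes, 4 had at least 10 reads in 1 library, and their counting intervals lay above 1, as did those of 27.5% of all single-exon entries with as many reads. Besides Hist1h3b these were Hist1h3d, with 0.799 and 0.320 RPKM (20.6 and 7.78 reads), Hist2h3c1, with 0.857 and 0.390 RPKM (97.9 and 42.0 reads), and Hist2h3c2, with 1.21 and 0.795 RPKM (77.6 and 47.9 reads). The folds were 2.50 (1.05 to 6.47), 2.20 (1.52 to 3.24) and 1.53 (1.06 to 2.25). Hist2h3c1 and Hist2h3c2 lie on chromosome 3 and have identical stem-loop sequences. None of their coding windows is unique, so reads within the coding sequence do not tell them apart from other genes. Their entries, of 1825 and 1020 bp, reach beyond the coding sequence, and windows there were not examined. Whether their values are separate measurements was therefore not tested. Hist1h3d reached 10 reads in MEF WT alone.

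Of the 4 H4 genes with as many reads, only Hist1h4h had an interval above 1. It had 1.8 RPKM in MEF WT and 1.06 RPKM in MEF NEAT1 KO, 54 and 30 reads, a fold of 1.70 (1.07 to 2.75). Hist1h4i, the highest H4 gene, had 2.55 and 1.87 RPKM, a fold of 1.37 (0.976 to 1.95). Hist1h4a had 0.562 and 0.162 RPKM, or 11 and 3 reads. Hist1h4d had the highest log2 ratio of all 68 genes, 0.34, with 0.454 RPKM in MEF WT and 0.845 RPKM in MEF NEAT1 KO. Its 8.90 and 15.6 reads gave a counting interval of 0.207 to 1.28 for the level in WT over that in KO, which includes 1. The next highest ratios, those of Hist1h2bn (0.18), Hist2h4 (0.17), Hist1h2ad (0.14) and Hist1h1b (0.12), likewise rested on 6.00 to 11.8 reads per library.

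The H1 genes other than Hist1h1c were all under 0.3 RPKM. Hist1h1e had 0.214 RPKM in MEF WT and 0.0231 RPKM in MEF NEAT1 KO, or 25.9 and 2.63 reads, a fold of 9.28 (2.51 to 42.2). On the log2 scale with the pseudocount of 1 this was a ratio of -0.25, since both levels are far below 1 RPKM. Of its coding windows 74.6% are found in no other gene, against 5.52% for Hist1h2af, but its entry overlaps the end of the long entry of Hist1h2be. Hist1h1d had 35.0 and 28.0 reads, a fold of 1.18 (0.697 to 2.01), and Hist1h1b had 8 and 11.8 reads, a fold of 0.640 (0.223 to 1.67). Hist1h1c had 2329 and 2334 reads, which gave 0.942 with the narrowest interval of these genes, 0.889 to 0.998. The testis gene Hist1h1t had 2.00 and 6.00 reads, and the testis genes Hist1h2aa and Hist1h2ba were listed at 0 in both libraries. A listed 0 allows up to 3 reads (a one-sided limit at 95%).

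Among the 3 H2B genes with at least 10 reads in 1 library every counting interval included 1. Hist1h2bg had 1.09 and 0.810 RPKM, or 42.0 and 29.5 reads, a fold of 1.34 (0.831 to 2.27), and Hist2h2be had 37.0 and 35.0 reads, a fold of 0.998 (0.611 to 1.63). Hist1h2bc has 2 exons, so its read number was not derived. Of its coding windows only 2.41% are found in no other gene, the rest being shared between them with 14 genes. Reads within those shared windows do not tell it apart. Its coding sequence is 381 nt, with 742 nt annotated after the stop codon, and windows outside the coding sequence were not examined. Among the remaining H2A genes, Hist3h2a had 914.2 and 769.7 reads, a fold of 1.12 (1.02 to 1.23), although none of its coding windows is unique. Its coding sequence is 393 nt of an entry of 1990 bp, and windows outside it were not examined. Hist1h2ai had 0.426 and 0.0851 RPKM, or 10.5 and 1.98 reads, a fold of 5.01 (1.13 to 48.2). Taking the 22 genes as they stand, 10 had intervals above 1, 1 (Hist1h1c) had an interval below 1, and 11 had intervals that include 1. Of all 229 single-exon entries of the table with as many reads, 27.5% had intervals above 1 and 12.2% had intervals below 1. The histone genes were not independent of one another here, since many share sequence.

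**Figure D4:**
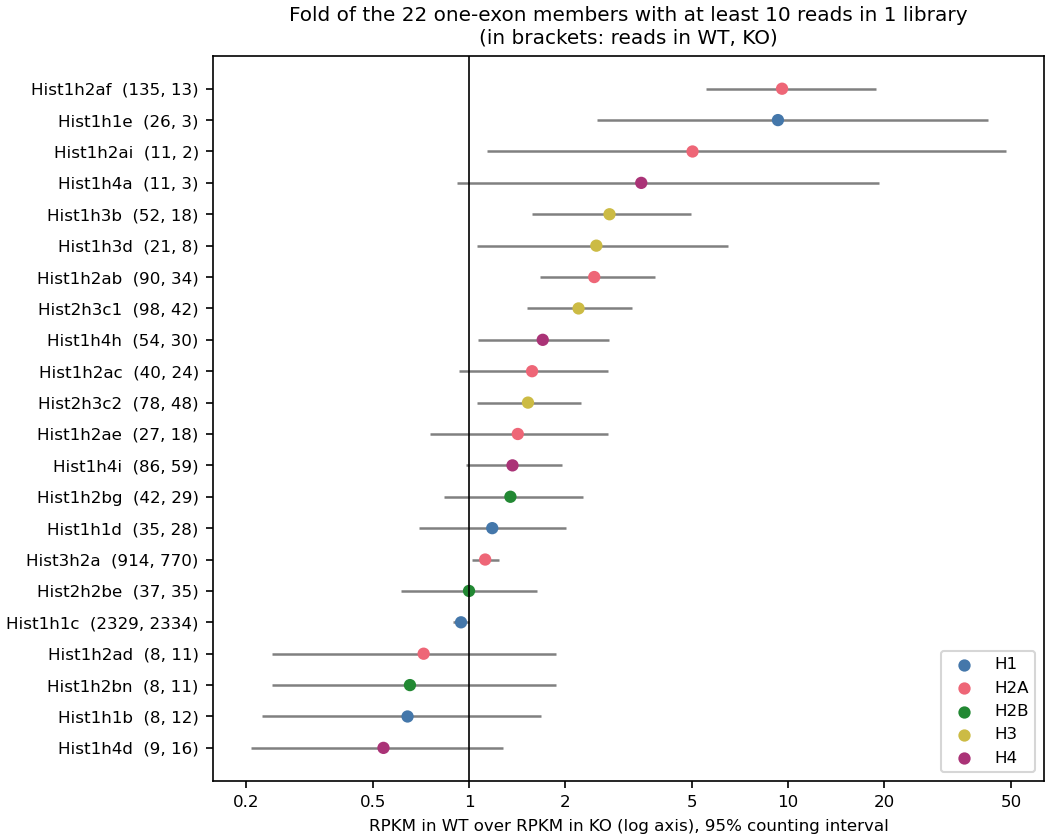
Fold of the RPKM in MEF WT over that in MEF NEAT1 KO (log axis) for the 22 single-exon genes with at least 10 reads in 1 library, coloured by histone type, with 95% counting intervals as grey lines and the reads in WT and KO in brackets. Hist1h2af and Hist1h1e have the highest folds, 9.56 and 9.28, the latter with a much wider interval, and the 4 genes at the bottom lie on the side of the knockout with intervals that include 1.

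By position, the 54 Hist1 genes had a median log2 ratio of -0.07 and the 10 Hist2 genes one of -0.04. Of 7 blocks of genes separated by more than 100000 bp, the one at 23531044 to 23764414 of chromosome 13 held 29 genes, with 8 higher and 21 lower in the knockout and sums of 134.3 and 106.8 RPKM. It includes Hist1h2bc, Hist1h1c, Hist1h2af, Hist1h2ab and Hist1h3b. The block at 21715763 to 21837530, of 18 genes, held only 1.98 and 1.59 RPKM, with 6 higher, 8 lower and 4 listed at 0 in both. Of all entries 30.1% were higher and 43.2% lower. Some entries of these blocks are long, as that of Hist1h2be (37455 bp), and reads in the stretch that overlapping entries share cannot be told apart.

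Genes outside the rule that act with the replication histones were compared by lists. For the counts below, 60.8% of the 11463 entries of at least 1 RPKM in at least 1 library were lower in MEF NEAT1 KO. The 11 genes listed as replication-independent histone variants, most of whose messengers are known to carry poly-A tails, all had at least 1 RPKM in both libraries. They summed to 324.7 and 313.8 RPKM, above the 150.1 and 119.6 RPKM of the replication histone genes. Their median log2 ratio was -0.12, with 4 higher and 7 lower. H3f3b, an H3.3 gene and the highest of them, had 89.6 RPKM in MEF WT and 100.2 RPKM in MEF NEAT1 KO (0.16), and H3f3a, the other H3.3 gene, had 17.2 and 17.6 RPKM (0.03). The linker variant gene H1f0 had 37.2 and 45.0 RPKM (0.27). On the lower side H2afz, which encodes H2A.Z, had 14.3 and 9.79 RPKM (-0.50), and Cenpa, the centromeric H3 gene, had 6.93 and 3.20 RPKM (-0.92).

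Of 17 genes of histone 3′ end processing and histone gene transcription, 4 were higher and 13 lower, with a median of -0.14. Slbp itself had 17.6 RPKM in MEF WT and 15.0 RPKM in MEF NEAT1 KO, a log2 ratio of -0.22. The list's lowest and highest log2 ratios were those of Casp8ap2, a component of the histone locus body, with 3.28 and 1.86 RPKM (-0.58), and Hinfp, a transcription factor for H4 genes, with 4.37 and 5.49 RPKM (0.27). Sympk, the scaffold of the cleavage complex, was the highest, with 44.5 and 46.2 RPKM (0.05). The 10 genes of poly-A polymerases, poly-A binding and exonucleases had a median of -0.14, 2 being higher and 8 lower, with Pabpc1, a cytoplasmic poly-A binding protein, at 203.5 and 190.6 RPKM (-0.09). In that list Cpsf4, a subunit of the cleavage and polyadenylation complex, had the highest log2 ratio, with 13.7 and 15.5 RPKM (0.17), and Pabpn1, the nuclear poly-A binding protein, the lowest, with 55.8 and 43.6 RPKM (-0.35).

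The lists tied to the cell cycle lay further to the lower side. Of the 11463 entries of at least 1 RPKM in at least 1 library 60.8% were lower, and 0.334% of all entries were below -1. All 31 DNA replication genes were lower in MEF NEAT1 KO, with a median log2 ratio of -0.56 and 2 below -1. Pcna, the sliding clamp and the highest of them, had 59.96 and 51.2 RPKM (-0.22), and Tk1, a thymidine kinase, had the lowest ratio, with 12.2 and 5.33 RPKM (-1.06). All 20 mitosis genes were lower, with a median of -0.87 and 5 below -1. Mki67, a marker of cycling cells, had 7.0 and 2.71 RPKM (-1.11), Cdc20, an activator of the anaphase-promoting complex, 24.3 and 9.61 RPKM (-1.25), and Ube2c, its partner ubiquitin-conjugating enzyme and the highest of the list, 29.0 and 16.04 RPKM (-0.82). Of 15 histone chaperone and assembly genes 14 were lower and 1 was higher, with a median of -0.51. Hat1, the acetyltransferase of newly made H4, had 11.8 and 5.67 RPKM (-0.94), Ssrp1, a subunit of the FACT chaperone and the highest, 72.0 and 60.7 RPKM (-0.24), and Ipo4, an importin for histones, 53.1 and 59.1 RPKM (0.15). How the replication histone genes stand beside these lists depends on which of them are counted. Over all 68, most of them at low levels where the pseudocount compresses the ratio, the median was -0.06. Over the 22 single-exon genes with at least 10 reads in 1 library it was -0.23 (-0.08 over the 229 such entries of the table), and over the 10 genes of at least 1 RPKM in 1 library it was -0.32 (-0.06 over the 11463 such entries). Of those 10 genes 4, Hist1h2af, Hist1h3b, Hist2h3c2 and Hist1h2bg, reached 1 RPKM in MEF WT alone, so that the limit itself favours a lower ratio. With a pseudocount of 0.1 the median of all 68 was -0.34, and those of the DNA replication, mitosis and chaperone lists were -0.64, -1.06 and -0.67. What part a difference in the share of cycling cells has in the histone values was not tested.

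**Figure D5:**
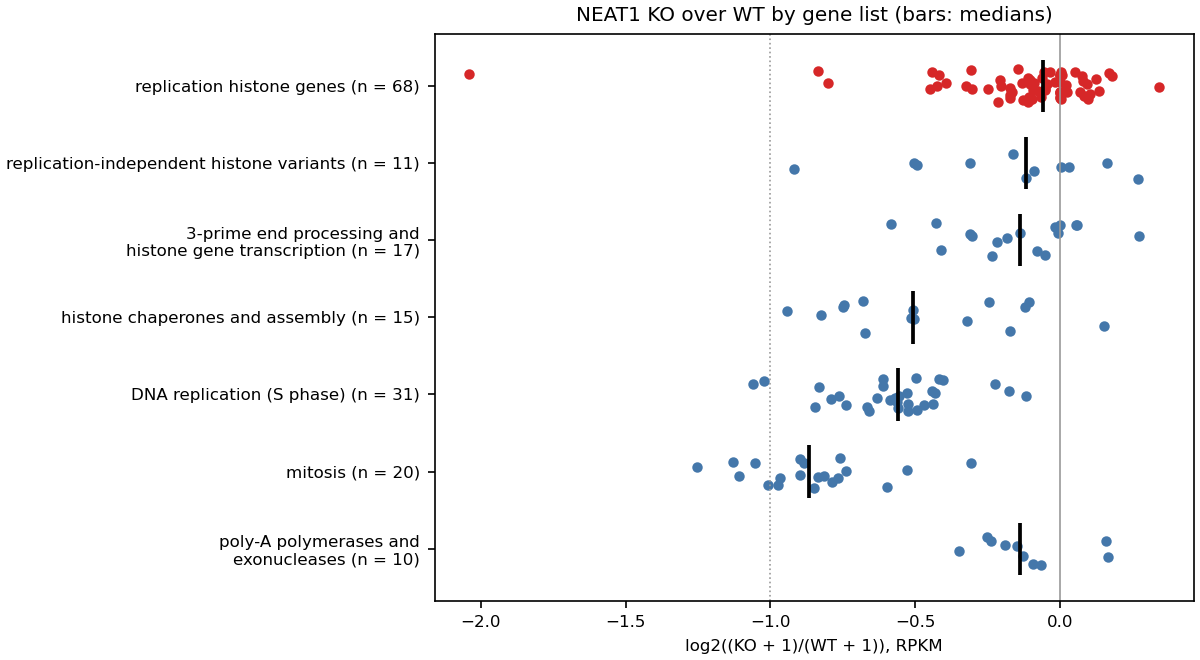
Log2 ratio of MEF NEAT1 KO over MEF WT (horizontal) for each gene of the replication histones (red) and of 6 lists of genes that act with them (blue), with the median of each list as a black bar and a dotted line at -1. The DNA replication and mitosis genes all lie below 0, with medians of -0.56 and -0.87, whereas the 68 replication histones, most of them at low levels where the pseudocount shrinks the ratio, lie on both sides of 0 with a median of -0.06 and Hist1h2af apart at -2.04. The median was -0.32 for the 10 histone genes of at least 1 RPKM in 1 library. All 10 reached that level in MEF WT and only 6 in MEF NEAT1 KO, so the limit itself favours a lower ratio.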

How the data were processed

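The poly-A+ libraries MEF WT and MEF NEAT1 KO were analysed, grouped by their sample labels. The authors deposited RPKM values, made by them from mapped reads. The submitters' processing notes list CASAVA 1.8 and the build mm10 for mouse, with no aligner settings. Normalization between the libraries and strandedness of the MEF libraries are not given in the sources used here. The genes, lists and alternatives were chosen with earlier results of these data known. The genes named by rule were Neat1, Hist1h2af, genes with at least 1 RPKM in 1 library, the 5 highest and 5 lowest log2 ratios, genes known for polyadenylated or testis transcripts, and of each list the highest gene and the largest ratio in each direction. Other genes were named after their values had been seen, among them Hist1h1e, Hist1h2ai, Hist2h3c1, Hist1h4a and Hist1h3g.

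From the deposited RPKM values, the log2 ratios were taken after adding a pseudocount of 1, with every entry kept. An entry start counts from 0 in the files, so 1 was added. What 1 read is worth was taken as the step, among those tried, at which more low values of 1938 single-exon entries were whole than at any other, and 64 of 209 low values in MEF WT and 62 of 184 in MEF NEAT1 KO were whole within 0.005 reads. The step was not used for a count test, since each condition has 1 library. Intervals were exact (Clopper-Pearson) at 95%. Transcripts were matched to GENCODE M21 by symbol for all 68 genes, and promoters came from RefSeq (GRCm38.p6), 67 genes matching by accession. A coding window is 50 bases long, and AATAAA was searched in the last 60 bases of a transcript. Alternatives were another pseudocount, a minimum level, centring, quantile normalization, 1 entry per symbol and subsets of the genes. The scripts were tested on simulated data. Python 3.11.15, numpy 2.4.6, pandas 2.3.3, scipy 1.17.1 and matplotlib 3.10.9 were used. The 2 libraries of VCaP cells were used only for the values set out at the end.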

Additional observations from a re-analysis of the deposited data

How the results depend on the processing

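No paired analysis was possible because each condition has 1 library and no result comes from a test, and for the same reason no library could be left out. Counts that stayed within a factor of 1.5, and log2 ratios within 0.58, were treated as equal, since no replicate spread exists. Of 155 recomputed values of the summary results 136 stayed within these bounds, and of 195 recomputed log2 ratios of named genes 193 did. With a pseudocount of 0.1, 10 histone genes had a log2 ratio below -1 in place of 1 (2.31% of all entries), none was above 1, the ratio of Hist1h2af was -3.05 and that of Hist1h3d -1.10. The numbers of all entries above 1, below -1, above 2 and below -2 were then 500, 540, 118 and 55. With only entries of at least 1 RPKM in 1 library, 1 histone gene was higher and 9 lower, where 60.8% of all such entries were lower, and the H2A median, over 3 genes, was -0.83. Of these 10 genes 4 passed through MEF WT alone, so neither value supports a direction. After centring, 34 genes were higher, the 7 at 0 in both libraries included by construction, and after centring or quantile normalization no gene was below -2, Hist1h2af standing at -1.98 and -1.97. Among entries over 1000 bp alone, 3 genes were higher and 13 lower, with 0 below -1 and 0 below -2. Of all entries, of any length, 43.2% were lower. The following were added after the data had been seen. Without Hist1h2af, 0 genes were below -1 and 0 below -2. With only single-exon genes of at least 10 reads in 1 library, 6 were higher and 16 lower (72.7%), where 63.8% of all 229 such entries were lower. Depth limits most of the family: 36 of 58 single-exon genes had under 10 reads in both libraries.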

Other observations

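The libraries of human VCaP cells, a prostate cancer line, were prepared by removal of ribosomal RNA without poly-A selection. They differ from the MEF libraries in species, cells and processing as well, so the values are only set side by side. Of 69 entries with symbols of human replication histones, 55 reached 1 RPKM in the library labelled VCaP and 39 in that labelled VCaP ERa, which is 79.7% and 56.5%, against 45.4% and 46.0% of all entries. Their medians were 6.61 and 1.58 RPKM, and they held 0.547% and 0.460% of all RPKM, where the MEF libraries had 0.0441% and 0.0339%. The highest entries were HIST1H2BK in VCaP, at 240.8 RPKM, and HIST1H1E in VCaP ERa, at 239.8 RPKM.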
